A study of Mus musculus with 8 samples.

Results

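Of 7 mu-class glutathione transferase genes, 5 were higher in mouse mammary epithelial cells expressing the R175Q mutant of ShcA than in cells expressing wild-type ShcA, while Gss and Gsr, for the enzymes that complete and recycle glutathione, were lower. Gstm1, Gstm2, Gstm3 and Gstm4 rose 1.91-fold to 2.22-fold, and Gstk1 rose 1.80-fold. Gsr and Gss fell 1.57-fold and 1.42-fold. Nfe2l2, Keap1, Nqo1 and Hmox1 did not pass the test. These values come from 59 genes of glutathione transfer, glutathione and thioredoxin metabolism and the NRF2 switch, picked out by a pattern of gene symbols that was itself written with earlier results of these data known. They are covered by 90 of the 39429 probes of the array, which carry 30222 gene names in all, and 53 of the 59 were measured well enough to test.

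The arrays compared 4 samples labelled R175Q with 4 labelled wild type, all from the NMuMG-NT2197 line, a mouse mammary epithelial line in which an activated Neu (ErbB2) receptor is expressed. Both groups carried a pMSCV/hygro vector, encoding ShcA with glutamine in place of arginine at residue 175 in the R175Q cells and unmutated ShcA in the wild-type cells. Whether endogenous ShcA remained, and whether either population was a clone, is not given in the sources used here. ShcA is an adaptor that docks on phosphorylated tyrosines of receptors, and residue 175 lies in its phosphotyrosine-binding domain. The question put by the design was what that mutant changes in gene expression. Between 1 and 2.5 ng of RNA per sample went through 2 rounds of linear amplification, and each sample was hybridised in Cy3 against a common reference RNA in Cy5. The labels call the reference mouse RNA in one field and human RNA in another, and call the material microdissected although the protocol describes cultured cells. Neither point could be settled, and nothing in the labels says that the 4 samples of a group came from separate cultures, so p-values measure only the spread between these samples.

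Values below are log2 ratios of sample over reference, normalised within each array. A gene at 0 had the typical ratio of spots of similar brightness on its array. Differences are R175Q minus wild type on that log2 scale, with the standard error of limma's fit over 4 arrays per group, and p-values are two-sided and adjusted by the Benjamini-Hochberg method over the 17331 genes tested, with 0.05 as the threshold. Between 53.7% and 63.0% of probes were well above background in Cy3 on each array, and pairs of arrays correlated at 0.970 to 0.996 across genes. Shc1 had 1.00 ± 0.21 in R175Q cells and 1.12 ± 0.10 in wild-type cells (SD, n = 4 each, adjusted p = 0.497), but the probe reads the amount of transcript and cannot show the substitution. Erbb2 was at -0.78 ± 0.09 in R175Q cells and -0.65 ± 0.04 in wild-type cells (SD, n = 4 each, difference -0.13, adjusted p = 0.194), a difference of 0.0016 after centring each array on its median. Whether the Erbb2 probe reads the transcript of the activated Neu receptor was not tested.

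Glutathione is a tripeptide made in sequence by glutamate-cysteine ligase and glutathione synthetase. Glutathione transferases couple it to electrophiles, glutathione peroxidases spend it on peroxides, and glutathione reductase regenerates it with NADPH. Thioredoxins and peroxiredoxins form a parallel peroxide-reducing system. NRF2, encoded by Nfe2l2, activates many of these genes through antioxidant response elements and is held low by KEAP1, which targets it for degradation.

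Among the 53 genes that could be tested, 9 rose in R175Q cells and 6 fell. That is 28.3% of them, beside 18.7% of all genes tested. Higher calls made up 17.0% of the set against 8.76% of all genes, and lower calls 11.3% against 9.93%. Of the 9 higher calls, 5 were among the 7 mu-class genes. Those genes stand together on chromosome 3, and their values may not be independent of each other. In 21 of the 53, or 39.6%, the R175Q and wild-type arrays did not overlap, against 23.4% of all genes. The median difference was 0.03 over the set and -0.02 over all genes, and the median absolute difference was 0.17 against 0.11. Centring each array on its median turned the split of all calls to 2216 higher and 653 lower, against 1518 higher and 1721 lower as normalised here.

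Markers of cell types moved with the groups. Of 8 mammary epithelial markers tested, 4 fell and none rose. The mean log2 ratio of that list ran between 0.25 and 0.30 in R175Q cells and between 0.69 and 0.87 in wild-type cells. Krt7 (-1.91) and Ocln (-0.89) had its largest differences, the list median was -0.24, and Cdh1 had -0.01. Cdh1, Epcam, Krt8 and Krt18 were well above background on all 8 arrays, and Cldn3 on none. Of 7 fibroblast and pericyte markers tested, 4 rose, with list means between -6.21 and -5.94 in R175Q cells and between -6.68 and -6.47 in wild-type cells, while Lum, Postn and Rgs5 were not well above background on any array. Among the other lists, 0 of 9 myeloid genes rose and 2 fell, 1 of 4 lymphocyte genes, 1 of 3 endothelial genes and 2 of 2 erythroid genes rose, and 0 of 2 adipocyte genes passed. With the background fitted to all spots 2 of the 14 marker calls were kept, Krt7 and Krt19. None of the fibroblast calls was kept there, and Dcn (0.72 here) and Col3a1 (0.39 here) had -0.04 and -0.28, while the erythroid Hba-a1 (0.42 here) had -0.10. In bulk RNA, fewer cells of a type and less RNA per cell cannot be told apart, and the part of these markers in the results on the glutathione and thioredoxin genes was not tested.

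**Figure D1:**
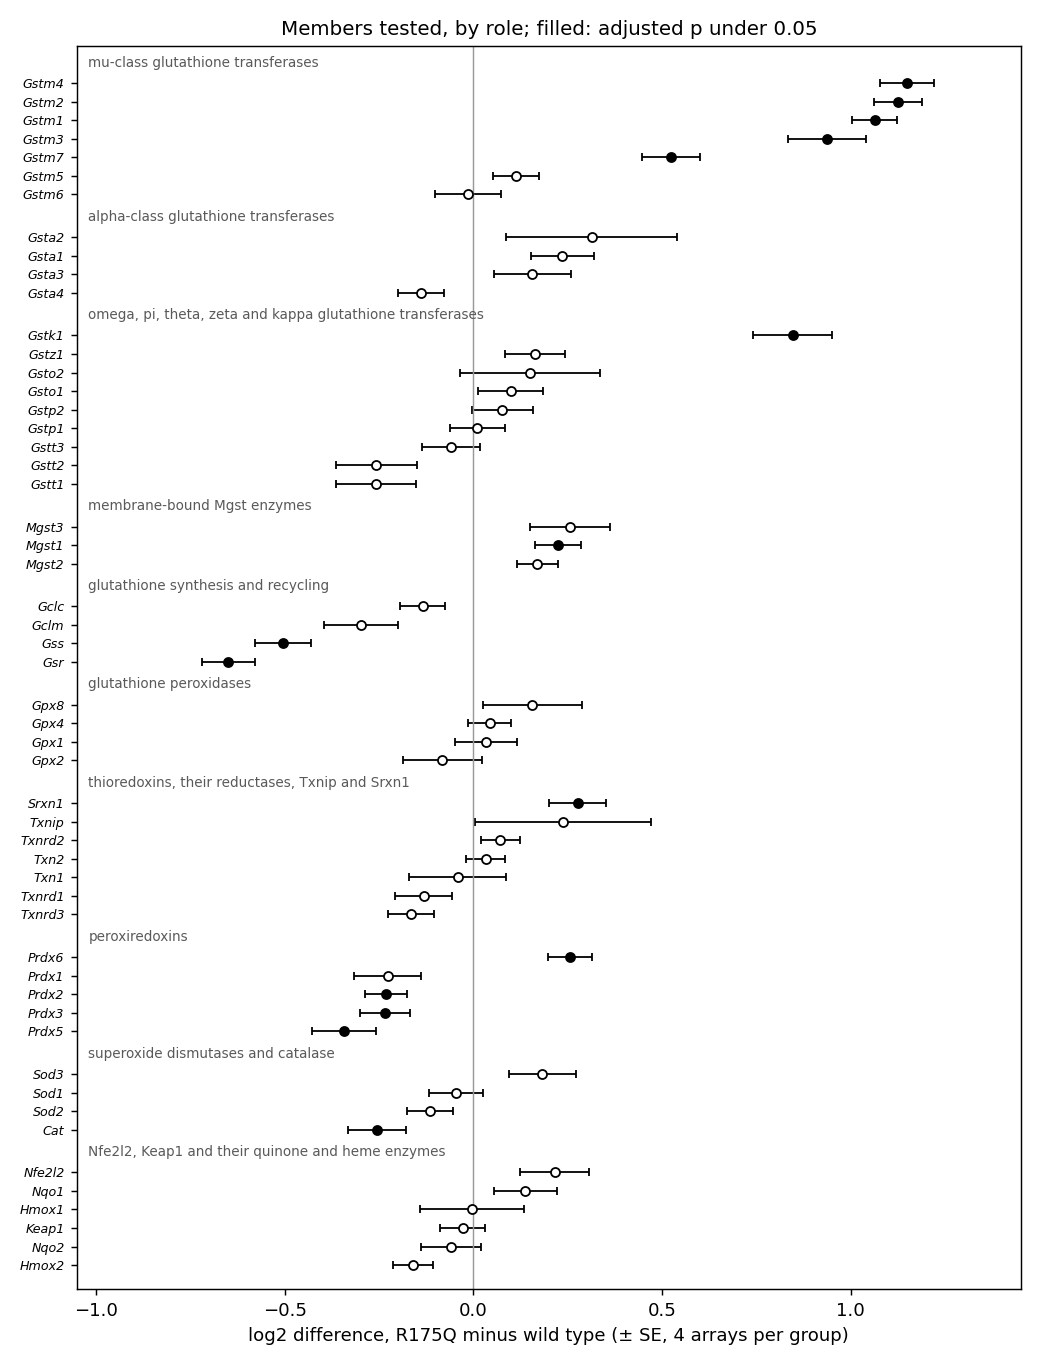
Log2 difference between R175Q and wild type (horizontal axis, with the standard error) for the 53 genes tested, one row per gene, grouped by role. Filled points have an adjusted p under 0.05, and the 4 points furthest to the right are the mu-class genes Gstm4, Gstm2, Gstm1 and Gstm3.

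The mu class had the largest differences of the set. Of its 7 genes, 5 rose and none fell, with a median difference of 0.94. The enzymes are soluble dimers that conjugate glutathione to electrophilic compounds, and in mouse their genes stand together on chromosome 3. Gstm4 had log2 ratios of -1.12, -1.08, -1.33 and -1.14 in R175Q cells, against -2.26, -2.33, -2.42 and -2.26 in wild-type cells. The lowest R175Q array stood above the highest wild-type array by a margin several times the spread within either group. The difference was 1.15 ± 0.07 (SE, n = 4 each, adjusted p = 5.54e-06), 2.22 times as high in R175Q cells.

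Gstm2 had -1.27, -1.26, -1.48 and -1.32 in R175Q cells, against -2.48, -2.50, -2.42 and -2.44 in wild-type cells. Gstm1 had -0.35, -0.36, -0.50 and -0.30 in R175Q cells, against -1.47, -1.44, -1.45 and -1.41 in wild-type cells. In both genes the wild-type arrays lay close together and R175Q replicate 3 was the lowest of its group, still clear of every wild-type array. The differences were 1.13 ± 0.06 for Gstm2 (SE, adjusted p = 3.37e-06) and 1.06 ± 0.06 for Gstm1 (SE, adjusted p = 3.2e-06), or 2.18-fold and 2.09-fold.

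Gstm3 had -0.05, -0.05, -0.39 and -0.15 in R175Q cells, against -1.04, -1.28, -1.19 and -0.88 in wild-type cells. The groups did not overlap, though both were more spread than for Gstm1 and Gstm2. Its difference was 0.94 ± 0.10 (SE, adjusted p = 0.000204). Gstm7 had -0.61, -0.48, -0.65 and -0.69 in R175Q cells, against -1.26, -1.21, -0.995 and -1.06 in wild-type cells. Its difference of 0.52 ± 0.08 (SE, adjusted p = 0.00105) was smaller than those of the leading 4. It also depended on the background model: fitted to all spots rather than to the negative controls, the difference of Gstm7 was 0.08 (adjusted p = 0.735).

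The other mu-class genes did not pass. Gstm5 averaged -0.29 in R175Q cells and -0.40 in wild-type cells, a difference of 0.11 (adjusted p = 0.245), although its arrays did not overlap. Gstm6 was well above background on 3 R175Q and 2 wild-type arrays and averaged -2.22 in R175Q cells and -2.20 in wild-type cells (difference -0.01, adjusted p = 0.937). Its sign was not settled: it passed as higher with the scanner's processed ratio (0.58, adjusted p = 0.0154) and in the deposited table (0.27, adjusted p = 0.0468), and had -0.50 with the background fitted to all spots.

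**Figure D2:**
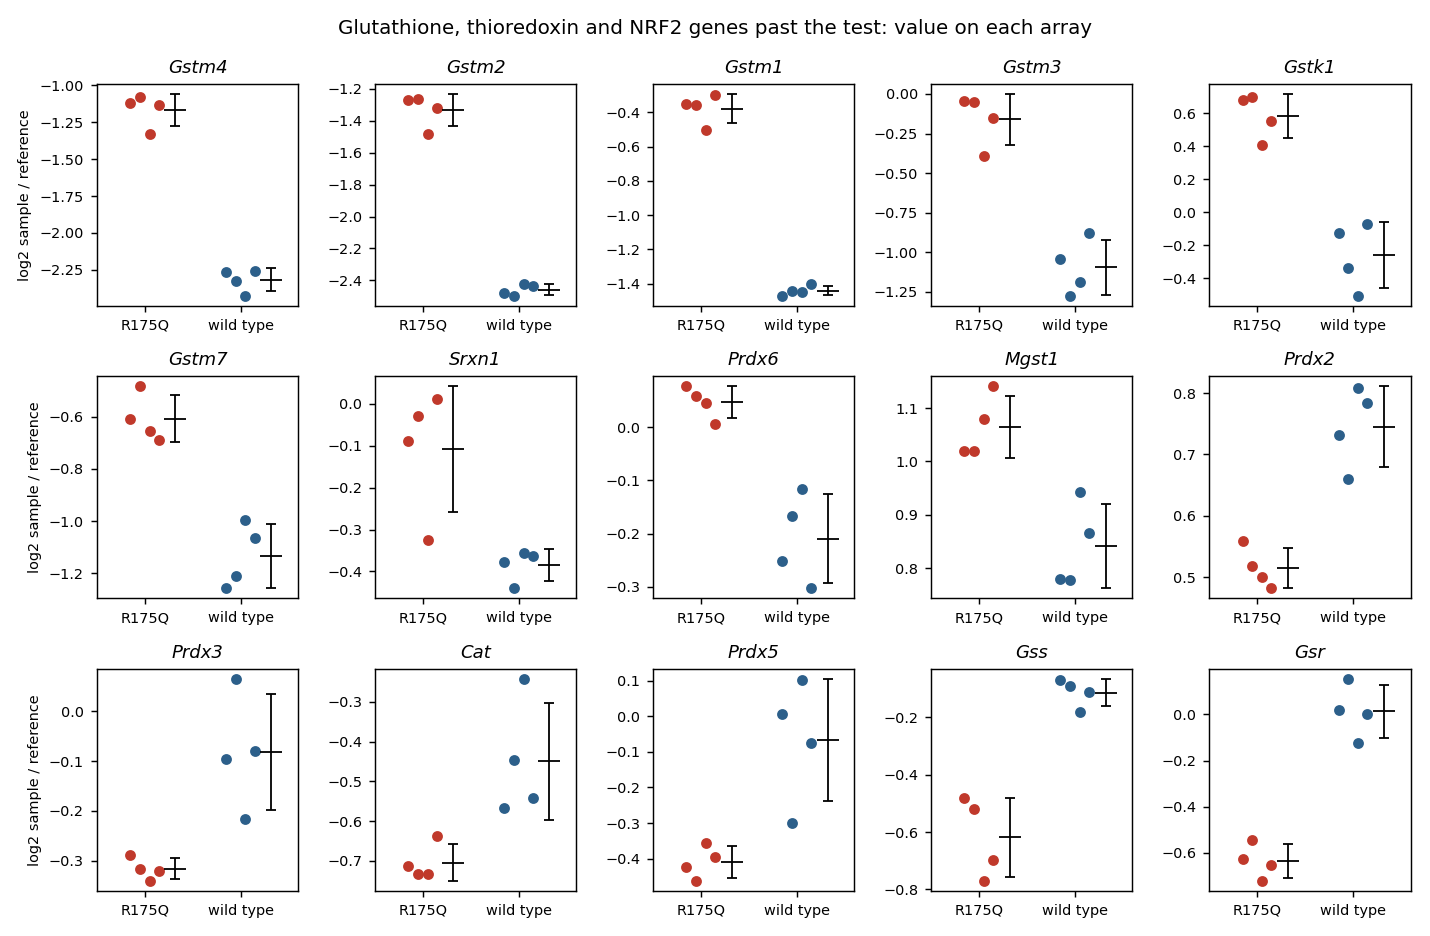
Log2 ratio of sample over reference on each array for the 15 genes past the test, R175Q (red) left of wild type (blue), with the mean and SD as a black bar beside each group, each panel on its own vertical scale. The groups of Gstm4, Gstm2 and Gstm1 are separated by about 1 on the log2 scale. Those of Srxn1, Prdx5, Cat, Prdx3 and Mgst1 nearly touch.

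The mu-class genes are close relatives, and whether a probe also binds the transcript of a relative was not tested, so their values may not be independent of each other. Separate tested probes of a mu-class gene agreed in sign. The 3 Gstm2 probes gave differences of 1.13, 0.94 and 1.00, and the 2 Gstm1 probes gave 1.06 and 1.00, of which the second is placed on chromosome 5 by the array's own annotation. The second Gstm7 probe gave 0.30. Second probes for Gstm3 and Gstm4 were well above background on 0 and 2 arrays and were not tested. The dim second probe of Gstm4 averaged -3.06 in R175Q cells and -2.82 in wild-type cells, opposite in direction to the used probe. That of Gstm3 averaged 0.06 and 0.07. The rises of Gstm3 and Gstm4 thus rest on 1 probe each.

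The used probes of the mu class lie between positions 107701101 and 107846847 of chromosome 3 in the mm9 build that the array files use. From one end to the other the order was Gstm5, Gstm7, Gstm6, Gstm3, Gstm2, Gstm1 and Gstm4. Gstm6, with no call here, lies between Gstm7 and Gstm3. Within 250 kb on either side, 13 other genes or transcripts were tested, none of which passed as higher. Their differences ran between -0.28 and 0.27 with a median of -0.02, and 1 of them fell, Ahcyl1 (-0.28, adjusted p = 0.0073). Csf1 (0.27, adjusted p = 0.0552) and Amigo1 (0.24, adjusted p = 0.0637) did not pass. In each of Ahcyl1, Csf1 and Amigo1 the R175Q and wild-type arrays did not overlap. These genes were named here after their values were seen.

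Promoters of the 4 genes with the largest rise are shown because these genes moved together. Each stretch is the 150 bases before an annotated start, written 5′ to 3′ on the gene's own strand, from RefSeq on GRCm38.p6, where all 4 lie on the minus strand of chromosome 3. Capitals mark CCAAT boxes, read as CCAAT or its reverse complement ATTGG, the letters bound by NF-Y in many promoters.
Gstm4 (chr3:108044860-108045009): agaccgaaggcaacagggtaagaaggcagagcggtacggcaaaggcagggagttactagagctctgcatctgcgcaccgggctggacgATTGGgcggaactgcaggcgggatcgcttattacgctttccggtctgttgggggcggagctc
Gstm2 (chr3:107986421-107986570): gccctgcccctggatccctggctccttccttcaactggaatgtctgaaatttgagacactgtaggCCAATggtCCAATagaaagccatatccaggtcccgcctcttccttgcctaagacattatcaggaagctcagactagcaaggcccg
Gstm1 (chr3:108017974-108018123): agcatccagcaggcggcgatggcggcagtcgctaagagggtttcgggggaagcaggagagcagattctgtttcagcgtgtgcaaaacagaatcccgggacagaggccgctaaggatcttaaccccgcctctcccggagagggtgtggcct
Gstm3 (chr3:107969175-107969324): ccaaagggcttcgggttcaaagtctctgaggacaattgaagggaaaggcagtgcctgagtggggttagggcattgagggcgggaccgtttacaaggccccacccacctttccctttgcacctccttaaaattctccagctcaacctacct
The printed stretches held 1 CCAAT box for Gstm4, 2 for Gstm2 and 0 for Gstm1 and Gstm3, for the starts shown. Around another annotated start of Gstm1, CCAAT boxes stood at positions -91 and -97 from it. Upstream of the printed stretch of Gstm1, another stood at -206 from the start shown. The count for Gstm1 thus depends on the start and on the length read. The GC content of the printed stretches was 60.7%, 52.7%, 60.7% and 54.0% in the same order. The whole windows ran from 250 bases before to 50 bases after the start. Over the 250 bases before it, no pair of these genes shared a run longer than 10 bases. The 50 bases after it were not compared.

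Antioxidant response elements were searched in the same RefSeq windows because the set is defined by NRF2 biology. Windows were matched for 52 of the 59 genes, all but Hmox1, Gsta4, Gclc, Gstt2, Prdx6, Sod3 and Gsr. The core TGACNNNGC, on either strand, stood in 10 of the 52 genes, or 19.2%, against 13.99% of 27025 genes of the table. It was present in 3 of the 8 matched genes that rose (Gstm7, Mgst1 and Srxn1), in 0 of 5 that fell and in 7 of 33 tested genes that did not pass. The variant TGAGNNNGC stood in 10 genes as well, or 19.2%, against 19.8% of all genes. The AP-1 letters TGANTCA stood in 7 of 52, or 13.5%, against 8.97%, and they overlap a core in Prdx1, Gstp1, Gstp2 and Srxn1. CCAAT boxes stood in 28 of 52, or 53.8%, against 41.1%. Examples upstream of genes that rose and of genes that did not pass are given with the core in capitals and 10 bases on either side, on the gene's strand. A core on the other strand is written as its reverse complement, and Srxn1 and Gstp1 are shown with the TGAGNNNGC version.
Gstm7 (chr3:107931725-107931753, rose): tctgaagaccTGACAAAGCgaagccaatc
Mgst1 (chr6:138140461-138140489, rose): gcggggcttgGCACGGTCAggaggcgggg
Srxn1 (chr2:152105469-152105497, rose): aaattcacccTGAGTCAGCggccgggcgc
Nfe2l2 (chr2:75704885-75704913, not passed): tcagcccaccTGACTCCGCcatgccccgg
Gclm (chr3:122245413-122245441, not passed): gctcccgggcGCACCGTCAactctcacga
Txnrd1 (chr10:82859104-82859132, not passed): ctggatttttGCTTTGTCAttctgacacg
Gstp1 (chr19:4037968-4037996, not passed): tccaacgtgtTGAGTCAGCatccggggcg
The core was present beside genes of either outcome, and Gstm1, Gstm2, Gstm3 and Gstm4 had neither version of it in these windows. A match is a run of letters and not a measured binding site, and the windows leave out any element further away.

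Outside the mu class, 1 soluble transferase rose. Gstk1, the kappa-class enzyme of mitochondria and peroxisomes, had 0.68, 0.70, 0.41 and 0.55 in R175Q cells, against -0.13, -0.34, -0.51 and -0.07 in wild-type cells. The groups were separated by more than the range of either. Its difference was 0.85 ± 0.11 (SE, adjusted p = 0.000415), 1.80-fold.

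The remaining omega, pi, theta and zeta genes did not pass. Their differences lay between -0.26 (Gstt1) and 0.16 (Gstz1), and the pi-class genes Gstp1 and Gstp2 had 0.01 (adjusted p = 0.946) and 0.08 (0.581). The probes of Gstt1 disagreed, with -0.26 for the brightest and 0.01 for another. None of the 4 alpha-class genes passed: Gsta2 had a difference of 0.31 (adjusted p = 0.404), with R175Q arrays ranging between 3.23 and 4.47 and wild-type arrays between 3.60 and 3.78. Without R175Q replicate 4 the difference of Gsta2 was 0.57, and it passed (adjusted p = 0.0135). Gsta1, Gsta3 and Gsta4 had 0.24, 0.16 and -0.14, of which Gsta1 passed in the deposited table (0.33, adjusted p = 0.0244) and Gsta3 had -0.60 with the background fitted to all spots.

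Of the membrane-bound Mgst enzymes, Mgst1 rose. Its R175Q arrays lay between 1.02 and 1.14 and its wild-type arrays between 0.78 and 0.94, without overlap, a difference of 0.22 ± 0.06 (SE, adjusted p = 0.0297). The call was kept without wild-type replicate 3 (adjusted p = 0.0106) and lost without any other single array (highest adjusted p = 0.0931). Mgst2 and Mgst3 had differences of 0.17 (adjusted p = 0.0533) and 0.26 (adjusted p = 0.131), and Mgst2 passed under 6 of the alternatives.

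Transcripts of the genes for glutathione synthesis and recycling leaned the other way. Glutathione itself and enzyme activity were not measured by these arrays. Of 4 genes, 2 fell and none rose, with a median difference of -0.40. Gsr encodes glutathione reductase, which returns oxidised glutathione to its reduced form. It had -0.63, -0.54, -0.72 and -0.65 in R175Q cells, against 0.02, 0.15, -0.12 and 0.00 in wild-type cells. All 4 R175Q arrays were well under all 4 wild-type arrays. The difference was -0.65 ± 0.07 (SE, adjusted p = 0.000191), and a second Gsr probe gave -0.76.

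Gss encodes glutathione synthetase, the second enzyme of synthesis. It had -0.48, -0.52, -0.77 and -0.70 in R175Q cells, against -0.07, -0.09, -0.18 and -0.11 in wild-type cells. The groups did not overlap, and the R175Q arrays were the more spread. Its difference was -0.50 ± 0.07 (SE, adjusted p = 0.00114).

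The subunits of glutamate-cysteine ligase, the first and rate-limiting enzyme, did not pass. The modifier subunit Gclm averaged 2.29 in R175Q cells and 2.59 in wild-type cells, a difference of -0.30 ± 0.10 (SE, adjusted p = 0.062). R175Q replicate 3, at 2.12, stood below the other R175Q arrays of Gclm, which lay between 2.32 and 2.36. The groups of Gclm did not overlap, and Gclm passed under 6 of the alternatives. Among these was the slide as a fixed block (-0.36, adjusted p = 0.0141). The catalytic subunit Gclc had a difference of -0.13 ± 0.06 (SE, adjusted p = 0.161).

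None of the 4 glutathione peroxidases tested passed. Gpx1 averaged -2.12 in R175Q cells and -2.15 in wild-type cells (adjusted p = 0.835), and Gpx4, which reduces lipid hydroperoxides, averaged -0.50 and -0.54 (adjusted p = 0.664). Gpx2 and Gpx8 had differences of -0.08 and 0.16. Gpx3, Gpx5 and Gpx7, with Gstt4 and Prdx4 from the other groups, were not well above background on any array, and Gpx6 was so on 1 wild-type array, so these 6 genes were not tested.

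Among thioredoxins, their reductases and the proteins that act on them, 1 of 7 passed. Srxn1 encodes sulfiredoxin, which repairs over-oxidised peroxiredoxins. It had -0.09, -0.03, -0.32 and 0.01 in R175Q cells, against -0.38, -0.44, -0.36 and -0.36 in wild-type cells. R175Q replicate 3 lay just above the wild-type arrays, and the other R175Q arrays were clear of them. The difference was 0.28 ± 0.08 (SE, adjusted p = 0.032), 0.35 without R175Q replicate 3 (adjusted p = 0.00494). The call was lost in the 6 fits that left out any other array except wild-type replicate 3, with adjusted p up to 0.0953.

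Txnip encodes the thioredoxin-interacting protein, an inhibitor of thioredoxin. It had -3.45, -3.32, -2.99 and -2.91 in R175Q cells, against -3.46, -3.95, -2.69 and -3.53 in wild-type cells. The groups overlapped throughout, with a difference of 0.24 ± 0.23 (SE, adjusted p = 0.547).

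The thioredoxins themselves did not pass. Txn1, the cytosolic form, had a difference of -0.04 (adjusted p = 0.871), and Txn2, the mitochondrial form, had 0.03 (adjusted p = 0.726) for its brightest probe. Another Txn2 probe had -0.45 (adjusted p = 0.00407 over all probes), and the mean of the Txn2 probes had -0.21 (adjusted p = 0.039), so the result for Txn2 depended on the probe. The reductases Txnrd1, Txnrd2 and Txnrd3 had differences of -0.13, 0.07 and -0.17, none of which passed.

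Peroxiredoxins use thiols to reduce hydrogen peroxide, and they were split. Of 5 tested, 1 rose and 3 fell. Prdx6, the single-cysteine member that also has phospholipase activity, had 0.08, 0.06, 0.04 and 0.01 in R175Q cells, against -0.25, -0.17, -0.12 and -0.30 in wild-type cells. Every R175Q array was above every wild-type array. The difference was 0.26 ± 0.06 (SE, adjusted p = 0.0136), and all 4 Prdx6 probes rose, by 0.22 to 0.33.

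Prdx5 had -0.42, -0.46, -0.36 and -0.40 in R175Q cells, against 0.01, -0.30, 0.10 and -0.07 in wild-type cells. The groups did not overlap, and wild-type replicate 2 came nearest to the R175Q arrays. Its difference was -0.34 ± 0.08 (SE, adjusted p = 0.0185). The cytosolic Prdx2 and the mitochondrial Prdx3 fell by 0.23 and 0.23 on the log2 scale (adjusted p = 0.017 and 0.0335). The Prdx2 call was lost without R175Q replicate 2 (adjusted p = 0.0506) or wild-type replicate 4 (0.0527), and the Prdx5 call without R175Q replicate 2 (0.0548) or wild-type replicate 1 (0.0573). The Prdx3 call was kept only without wild-type replicate 3 (adjusted p = 0.00786), and had adjusted p up to 0.0835 without each other array. Prdx1 had a difference of -0.23 (adjusted p = 0.114) for its brightest probe and -0.32 (adjusted p = 0.00252 over all probes) for another.

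Catalase, the peroxisomal enzyme that splits hydrogen peroxide, was the only gene to pass in its group, which otherwise holds the superoxide dismutases. Cat lay between -0.73 and -0.64 in R175Q cells, and between -0.57 and -0.24 in wild-type cells, a difference of -0.26 ± 0.08 (SE, adjusted p = 0.0441). It was called in 2 of the 8 fits that left out an array, those without wild-type replicate 1 (adjusted p = 0.0453) or wild-type replicate 3 (0.0385), with adjusted p up to 0.11 in the others. The cytosolic Sod1, mitochondrial Sod2 and extracellular Sod3 had differences of -0.05, -0.11 and 0.18 and did not pass (adjusted p = 0.718, 0.242 and 0.194). Sod3 was at 3.07 in R175Q replicate 4, below the 3.23 to 3.26 of the other R175Q arrays.

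**Figure D3:**
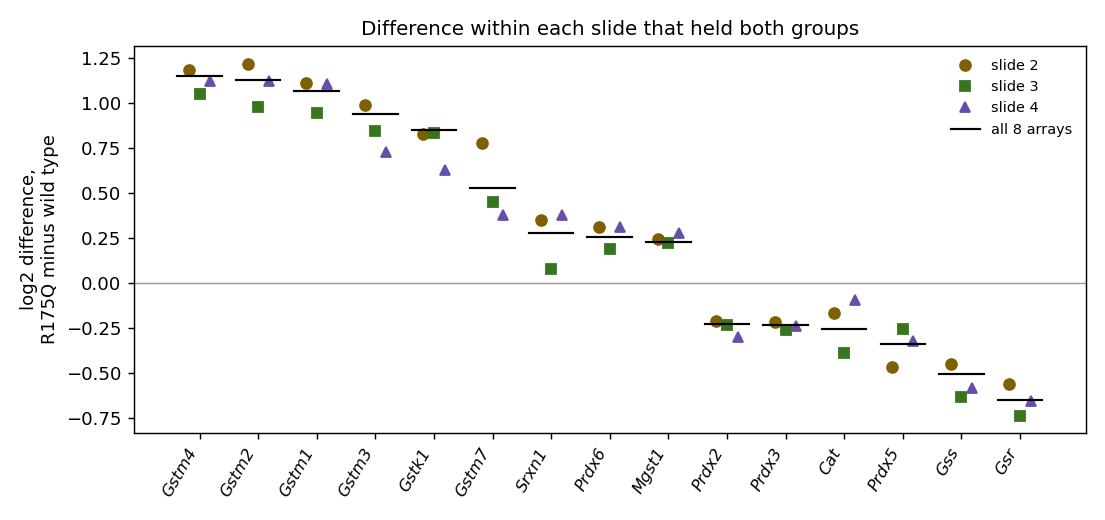
Difference between R175Q and wild type (vertical axis, log2) within each of the 3 slides that held both groups (symbols), with the difference over all 8 arrays as a black line, for the 15 genes past the test. Every symbol lies on the same side of 0 as its line, which follows from the R175Q and wild-type arrays of these genes not overlapping.

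None of the 6 genes of the NRF2 switch and its quinone and heme enzymes passed as normalised here, though 2 of them, Nfe2l2 and Hmox2, did under other settings. Nfe2l2 had 1.09, 1.26, 1.40 and 1.39 in R175Q cells, against 1.07, 0.89, 1.22 and 1.11 in wild-type cells. The groups overlapped, with 3 of 4 R175Q arrays above every wild-type array and a difference of 0.22 ± 0.09 (SE, adjusted p = 0.142). After median centring Nfe2l2 passed (0.29, adjusted p = 0.0407). Keap1 had -0.86, -0.91, -1.004 and -0.98 in R175Q cells, against -0.91, -0.84, -0.89 and -0.997 in wild-type cells, with a difference of -0.03 (adjusted p = 0.803) that was 0.06 after median centring.

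Nqo1, a quinone reductase often used as a readout of NRF2, had -5.39, -5.17, -5.50 and -5.51 in R175Q cells, against -5.49, -5.47, -5.62 and -5.54 in wild-type cells. It was far dimmer in both groups than in the reference. The difference was 0.14 ± 0.08 (SE, adjusted p = 0.302) and took the other sign, -0.38 (adjusted p = 0.625), with the background fitted to all spots. Hmox1, the inducible heme oxygenase, averaged -0.88 in R175Q cells and -0.87 in wild-type cells (adjusted p = 0.99). Nqo2 and Hmox2 had differences of -0.06 and -0.16, and Hmox2 passed with the scanner's processed ratio (-0.18, adjusted p = 0.0395) and without wild-type replicate 3 (-0.17, adjusted p = 0.0438).

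Slides and scan days were compared because the arrays were not all run together. Within each of the 3 slides that held both groups, all 15 called genes had the same sign as over all arrays. This sign could not have differed, because the R175Q and wild-type arrays of all 15 did not overlap. Only the sizes within slides carry information. In those slides Gstm4 differed by 1.18, 1.05 and 1.12, Gstm1 by 1.11, 0.94 and 1.11, Gsr by -0.56, -0.74 and -0.66, and Gss by -0.45, -0.63 and -0.59. R175Q replicate 1 was alone on its slide and scan day. With the slide as a fixed block, 9 of the 15 calls remained, those of Gstm1, Gstm2, Gstm3, Gstm4, Gstm7, Gstk1, Prdx6, Gss and Gsr, in a fit that called 12.8% of all genes. The other 6 then had adjusted p between 0.0628 (Prdx2) and 0.142 (Cat). With the scan day as a fixed block Prdx6 was lost as well (adjusted p = 0.0643), leaving 8. Those 9 genes, Prdx6 included, were called in all 8 fits that left out an array.

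The background model mattered as much. Fitted to all spots, it kept 9 of the 15 calls, in a fit that called 5.06% of all genes, and Gstm7, Srxn1, Mgst1, Prdx3, Prdx5 and Cat were lost. Apart from Gstm7, their differences were of similar size there: Srxn1 0.24, Mgst1 0.20, Prdx3 -0.25, Prdx5 -0.34 and Cat -0.28. With both changes together none of the 15 passed, in a fit that called 6 of the 17331 genes. Gstm1 then had a difference of 0.96 (adjusted p = 0.0741), Gstm4 0.95 (0.0827), Gsr -0.67 (0.148) and Gss -0.58 (0.141). Median centring kept 11 of the 15 calls, without Prdx2, Prdx3, Prdx5 and Cat, and scaling between arrays kept 10. No called gene changed sign under any of the 24 alternatives tried.

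**Figure D4:**
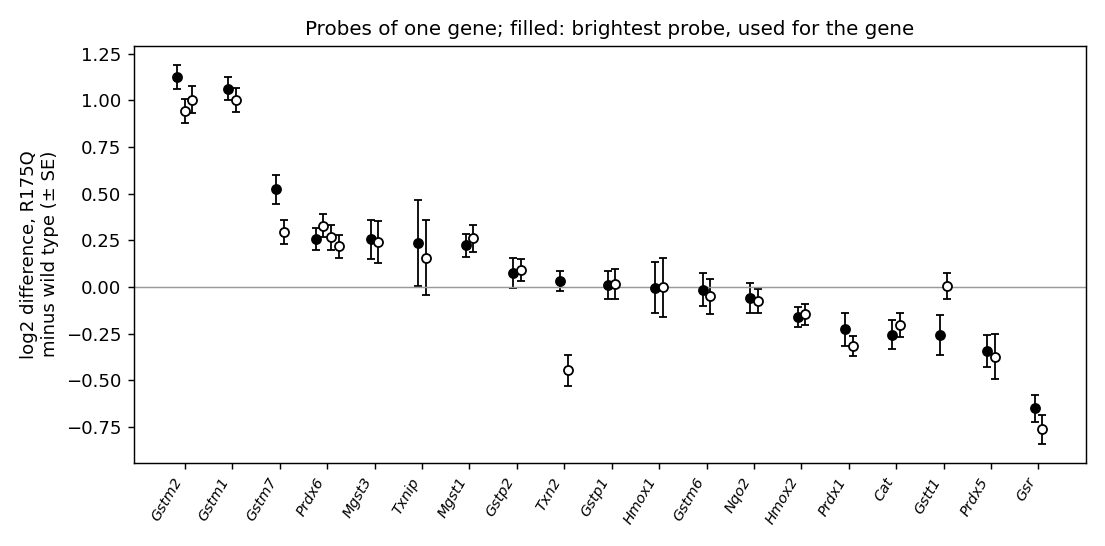
Log2 difference between R175Q and wild type with its standard error (vertical axis) for every tested probe of the 19 genes with more than 1 tested probe, the brightest probe filled. Probes of a gene lie on the same side of 0 for 17 of the 19, with Txn2 and Gstt1 apart.

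Genes around the set were read from 5 lists of related enzymes and regulators. Among enzymes and transporters that handle glutathione and its conjugates, 2 of 27 tested rose and 4 fell, with a median difference of 0.02. Those calls are 22.2% of the list, near the 18.7% of all genes. Cbs, the cystathionine synthase that feeds homocysteine towards cysteine, fell by 0.74 on the log2 scale (adjusted p = 0.000135), and Abcc2, an exporter of glutathione conjugates, rose by 0.58 (0.00466). Abcc5, a related exporter, Ggct, which breaks down gamma-glutamyl peptides, and Gstcd fell by 0.32, 0.38 and 0.29. With the background fitted to all spots 2 of the 6 calls were kept, Cbs (-0.47) and Abcc5, while Gstcd had -0.05 (adjusted p = 0.895).

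Among NADPH-supplying enzymes and other reported NRF2 targets, 6 of 23 rose and 3 fell, with a median difference of -0.05, which is 39.1% called against 18.7% of all genes. Ptgr1, prostaglandin reductase, rose by 1.09 ± 0.09 (SE, adjusted p = 3.12e-05), Ephx1, microsomal epoxide hydrolase, by 0.52 (0.00102), and the carbonyl reductase Cbr1 by 0.49 (0.000386). Another carbonyl reductase, Cbr3, fell by 0.62 (adjusted p = 0.00318), as did Ugdh, which makes UDP-glucuronate, by 0.47 (0.00447). With the background fitted to all spots 5 of the 9 calls were kept, including those of Ptgr1, Ephx1, Cbr1 and Ugdh, and Cbr3 was lost (adjusted p = 0.296).

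Among partners and regulators of NRF2, 2 of 15 rose and 1 fell, or 20.0%, near the share of all genes. Btrc, a substrate adaptor of a ubiquitin ligase that can target NRF2, rose by 0.34 (adjusted p = 0.00331), but had 0.03 (adjusted p = 0.852) with the background fitted to all spots. Bach1, a repressor at antioxidant response elements, rose by 0.31 (0.0063), and Dpp3, a KEAP1-binding peptidase, fell by 0.30 (0.00661).

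Among thioredoxin-fold proteins, methionine sulfoxide reductases and selenoprotein genes, 2 of 33 rose and 5 fell, with a median difference of -0.01, or 21.2% called, near the share of all genes. The methionine sulfoxide reductase Msra rose by 0.53 (adjusted p = 0.00215), while Msrb2 fell by 0.47 (0.0167). Secisbp2, needed to insert selenocysteine, Sesn3, a sestrin, and Arrdc4, an arrestin-domain relative of Txnip, fell by 0.35, 0.59 and 0.63 (adjusted p = 0.00212, 0.0024 and 0.0194). Of the 7 calls, 1 was kept with the background fitted to all spots, that of Msra.

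Among oxidant-producing enzymes, 5 of 16 tested rose and 1 fell, with a median difference of 0.13, or 37.5% called. Ncf4, a cytosolic subunit of the phagocyte NADPH oxidase, averaged -4.62 in R175Q cells and -6.11 in wild-type cells, a difference of 1.48 ± 0.08 (SE, adjusted p = 3.2e-06) that was 0.40 (adjusted p = 0.544) with the background fitted to all spots. Cyba, the membrane subunit, fell by 0.87 (adjusted p = 3.32e-05). Duoxa1, a maturation factor of dual oxidase, and the oxidases Aox1 and Xdh rose by 0.80, 0.79 and 0.48. With the background fitted to all spots the calls of Aox1, Xdh and Cyba were kept. Across the 5 lists 17 genes rose and 14 fell, and with the background fitted to all spots 7 rose and 6 fell.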

How the data were processed

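Agilent Feature Extraction 9.5.3.1 produced the scanner tables, per the file headers, which hold spot intensity in Cy3 and Cy5, background and negative-control spots, and a log10 ratio of Cy5 over Cy3 after the scanner software's own background and dye correction. The deposited value table holds log2 ratios. Its scale and centring are not given in the sources used here, its direction was taken from the values (r = 0.984 to 0.993 with the same array's ratio of Cy3 over Cy5), and its column medians were 0.0526 to 0.0617.

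Background was corrected by normexp (offset 50) with the mean and SD of the 153 negative-control spots of each channel, then loess within arrays with control spots at weight 0 (limma 3.58.1, R 4.3.3). Non-uniform outlier spots were dropped, spots of a probe averaged, and a probe was kept when the scanner flagged it above background in Cy3 on 4 or more of the 8 arrays. The brightest probe stood for a gene. limma's lmFit and eBayes compared the groups, two-sided, over 17331 genes, without a block. The number of arrays limits the precision stated, and dim probes are also limited by their signal over background. Steps were tested on simulated data.

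The genes, the lists and this background were chosen with earlier results of these data known, in which this background called more genes than the usual fit to all spots. The reason was that the usual fit put the Cy3 background at -689.8 to -0.369, while the medians of the negative controls were 13.1 to 22.7. The usual fit is one of 24 alternatives (22 planned, 2 added after seeing the data) and calls 877 genes, against 3239.

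Genes named were those past the threshold, those with a difference of at least 0.5, a fixed set of central members, up to 5 called genes of each list, Shc1 and Erbb2. Remaining members are named to account for the set. Values of each array are given for 15 members. Promoters came from RefSeq (GRCm38.p6), and array positions are mm9. Member probes were matched to current symbols by accession for 82 of 90.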

Additional observations from a re-analysis of the deposited data

Results flagged for a closer look

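Chance alone flags about 1 group in 20 by Dixon's criterion for an array that stands apart from the other 3 of its group, and 2 of the 64 groups checked were flagged. Gclm stood out in R175Q replicate 3, at 2.12 against 2.32 to 2.36 on the other R175Q arrays. Sod3 stood out in R175Q replicate 4, at 3.07 against 3.23 to 3.26 on the other R175Q arrays.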

How the results depend on the processing

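None of the 15 called set genes changed sign. With the background fitted to all spots, 3 set genes were lower (6 in the reported fit), 465 of all genes were higher and 412 lower, and 7 pathway genes were higher and 6 lower. Median centring left 2 set genes, 653 of all genes and 6 pathway genes lower, and scaling between arrays left 3, 936 and 6 lower and 904 of all genes higher. The slide as a fixed block left 3 set genes lower, and the scan day as a fixed block 2. The background fitted to all spots together with the slide block, added after seeing the data, left 0 set genes higher and 0 lower, 3 of all genes higher and 3 lower, and 0 pathway genes in either direction. Negative-control medians and MADs, also added, kept all 15 calls. They were tried because the negative-control SD of wild-type replicate 3 was 40.8, against 3.86 to 11.7 elsewhere. Leaving out each array gave 7 to 10 set genes higher and 2 to 9 lower, 1081 to 2031 of all genes higher and 1172 to 2012 lower, and 14 to 27 pathway genes higher and 12 to 16 lower, with the highest counts but for a tie without wild-type replicate 3.

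Of the 38 set genes that had not passed, 16 changed sign under at least 1 alternative, and 13 passed under at least 1. Among called marker genes, Dcn, Col3a1 and Hba-a1 changed sign with the all-spot background. Sign changes among the central genes were those of Erbb2 (0.0016, median centring), Hmox1 (0.042 median centring, 0.0166 scaling, 0.0376 slide block, 0.0037 random slide block, 0.0181 scan day, 0.0183 all-spot background with slide block, and -0.0815 to 0.151 leaving out each array), Keap1 (0.0642 median centring, 0.0335 scaling), Nqo1 (-0.3804 all-spot background, -0.4004 with the slide block), Sod3 (-0.0295 scaling), Gpx1 (-0.0114 to 0.0921 leaving out each array), Txn1 (-0.1669 to 0.0506 leaving out each array) and Txn2 (-0.2072, mean of its probes). The causes were not tested.

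Replicate numbers were shared by the groups, but same-numbered arrays deviated together only in part (r = 0.335, 0.0163, 0.482 and 0.0513), and not every array correlated best with its own number, so the numbers were not taken as pairs. With the replicate block, calls numbered 1763 upward and 1930 downward, Cat was lost (adjusted p = 0.0545), and Gclm, Gstt1 and Mgst3 passed (adjusted p = 0.0247, 0.0273 and 0.0297). Dim genes such as Nqo1 are limited by the signal over background.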
